A study of Mus musculus with 8 samples.

Results

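The microRNAs miR-183, miR-96 and miR-182 are made from 3 hairpins that lie together on mouse chromosome 6. Their sequences were taken from a table of small RNA reads of MIN6B1 cells, a mouse insulinoma line, by the name of the annotated hit: any mature miR-183, miR-96 or miR-182, either arm. This gave 19 of 11568 distinct sequences, and 19 of the 652 sequences with a mature microRNA hit. Of the 19, 9 were miR-182-5p, 5 were mmu-miR-183-5p, 4 were mmu-miR-183-3p and 1 was miR-96-5p. No sequence named miR-96-3p or miR-182-3p was listed, and these arms were not analysed here. A further 7 sequences had a hit to one of the hairpins but no mature hit. Among the sequences without any hit, 7 were a cluster read with 1 or 2 added 3′ nucleotides and 20 differed from a cluster read by 1 substitution.

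The 3 microRNAs are known as a conserved cluster made from a shared primary transcript, with high levels in sensory organs such as the retina and the inner ear, and they are also found in endocrine cells. A microRNA acts inside an Argonaute protein and pairs with target mRNAs mainly through its seed, bases 2 to 8. The hairpin yields a 5p and a 3p arm, of which one is usually kept more often. The study used a tagging scheme in which a methyltransferase, HENMT1ΔC, is joined to the T6B peptide, a fragment that binds Argonaute. HENMT1 puts a methyl group on the 2′ oxygen of the last nucleotide of a small RNA. Periodate (NaIO4) oxidizes the free 3′ end of an unmethylated RNA, which then cannot be ligated to an adapter, whereas a methylated end is left intact.

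There were 4 groups of 2 libraries. Cells received either a control plasmid or a plasmid for HENMT1ΔC-T6B by lipid transfection (Lipofectamine), with 4 hours in the complex and 24 to 72 hours in medium afterwards. Total RNA of each was either oxidized with NaIO4 or left non-oxidized, and libraries were made from 5 ng of RNA with a QIAseq miRNA kit. All groups share the cell line, a tumour-derived beta cell model, and the protein came from a transfected plasmid. The labels do not say whether the 2 libraries of a group came from separate cultures, so p-values measure the spread between these libraries, which may be technical. The beta cell microRNAs miR-375-3p and miR-7a-5p, the markers of the labelled cell type, were abundant, with 419998 and 408024 counts of the main miR-375-3p read in the non-oxidized control libraries. Markers of blood (0 of 5), mesenchymal (0 of 3) and muscle cells (0 of 3) had no listed sequence, the liver marker miR-122-5p had 404 and 164 counts in non-oxidized control and 791 and 553 in non-oxidized methyltransferase RNA, and both neuronal markers, miR-124-3p and miR-9-5p, were listed. The part of these markers in the results was not tested.

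Listed counts summed to between 3654639 and 6641250 in the non-oxidized libraries, to 3100971 and 2446036 in the oxidized methyltransferase libraries, and to 438363 and 295094 in the oxidized control libraries. The listing holds no sequence below 2 counts in either library of oxidized methyltransferase RNA, or below 10 in both together. A listed sequence can therefore not be at 0 in that group, and the direction of a comparison with oxidized control RNA is in part fixed by the listing. The sums are totals of listed sequences and not full depths.

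In the mouse genome (GRCm38) the hairpins are on the minus strand at chr6:30165918-30165992 (Mir182), chr6:30169446-30169551 (Mir96) and chr6:30169668-30169737 (Mir183). Mir96 and Mir183 are 116 bp apart and Mir182 is 3453 bp from Mir96, so that the cluster spans 3820 bp. It lies between the protein-coding genes Nrf1, on the plus strand, and Ube2h, on the minus strand, and GENCODE places no other gene over the hairpins. The nearest annotated gene on the Mir183 side is the lincRNA Rncr4 at chr6:30172893-30175126 on the plus strand. The RefSeq mature sequences (GRCm38.p6) of the arms with listed reads are shown to compare their seeds, which are in capitals, 5′ to 3′.
mmu-miR-182-5p: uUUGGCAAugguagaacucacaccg
mmu-miR-96-5p: uUUGGCACuagcacauuuuugcu
mmu-miR-183-5p: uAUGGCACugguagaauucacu
mmu-miR-183-3p: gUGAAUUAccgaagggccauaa

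Counted from 1 at the 5′ end, the first 8 bases of miR-182-5p and miR-96-5p differ by A8C, and those of miR-96-5p and miR-183-5p by U2A. The seeds of miR-182-5p and miR-96-5p, and those of miR-96-5p and miR-183-5p, thus share 6 of 7 bases, while miR-182-5p and miR-183-5p share 5 of 7. Over 22 aligned positions miR-182-5p and miR-183-5p had 18 bases in common, against 13 for miR-96-5p and miR-183-5p. No other RefSeq mouse mature microRNA had the seed of miR-182-5p, miR-183-5p or miR-183-3p, and 1, miR-1271-5p, had that of miR-96-5p.

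The reads of 1 arm differed mostly in where they ended. The ends that the results turn on are shown as deposited DNA letters, with the 3′ bases beyond the shortest read of that start in capitals.
miR-182-5p, 22 nt: tttggcaatggtagaactcACA
miR-182-5p, 24 nt: tttggcaatggtagaactcACACC
miR-182-5p, 25 nt: tttggcaatggtagaactcACACCG
miR-182-5p, 26 nt: tttggcaatggtagaactcACACCGG
miR-183-5p, 22 nt: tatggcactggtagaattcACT
miR-183-5p, 23 nt: tatggcactggtagaattcACTG
miR-183-5p, 24 nt: tatggcactggtagaattcACTGT
miR-183-3p, 20 nt: tgaattaccgaagggccatA
miR-183-3p, 21 nt: tgaattaccgaagggccatAA
miR-183-3p, 22 nt: tgaattaccgaagggccatAAA
The 25-nt miR-182-5p read and the 22-nt miR-183-5p read have the RefSeq ends. The 26-nt miR-182-5p, the 23-nt and 24-nt miR-183-5p and the 22-nt miR-183-3p reads run past the RefSeq 3′ end and carried the hairpin hit only. The miR-183-3p reads shown start 1 nt after the RefSeq start. Reads of miR-183-5p that start 1 nt later than RefSeq were listed as well, at 21, 22 and 23 nt.

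In non-oxidized control RNA, miR-182-5p was the most abundant arm, with 8513 and 9995 counts over its mature-hit reads. miR-183-5p had 1142 and 1363, miR-96-5p 448 and 529, and miR-183-3p 401 and 512. The last pair did not differ beyond the spread of the 2 libraries. By the group's summed counts miR-182-5p ranked 25 of 179 mature microRNA names, miR-183-5p 65, miR-96-5p 88 and miR-183-3p 90. The cluster made up 0.291% ± 0.011 (SD, n = 2) of all mature microRNA counts in non-oxidized control RNA. The hairpin-only reads added to miR-183-5p: its most abundant read was the 23-nt one, 1 base past the RefSeq end, with 37.3% and 37.1% of miR-183-5p reads, against 11.7% and 13.5% for the RefSeq 22-nt read. Among miR-182-5p reads the 25-nt RefSeq form came first with 41.2% and 41.5%, and the 22-nt form was next with 23.5% and 25.6%. Among miR-183-3p reads the 21-nt form, which has the RefSeq 3′ end, held 40.3% and 37.4%.

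Of the 19 mature-hit sequences, 16 had enough counts to be tested. The 3 others were a miR-182-5p read that starts 1 nt late, a miR-182-5p read with another first base and no genomic match, and the miR-183-3p read with the RefSeq start, each with at most 17 counts in a library. All 7 hairpin-only sequences, 4 of the 7 with added nucleotides and 5 of the 20 with a substitution were tested. Tests used edgeR's quasi-likelihood test over all 9851 sequences that passed the filter, and a sequence is called at a Benjamini-Hochberg adjusted p under 0.05. Levels are CPM, counts relative to the library total, scaled by the trimmed mean of M-values (TMM), and fold changes are log2 values with their standard error (SE).

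**Figure D1:**
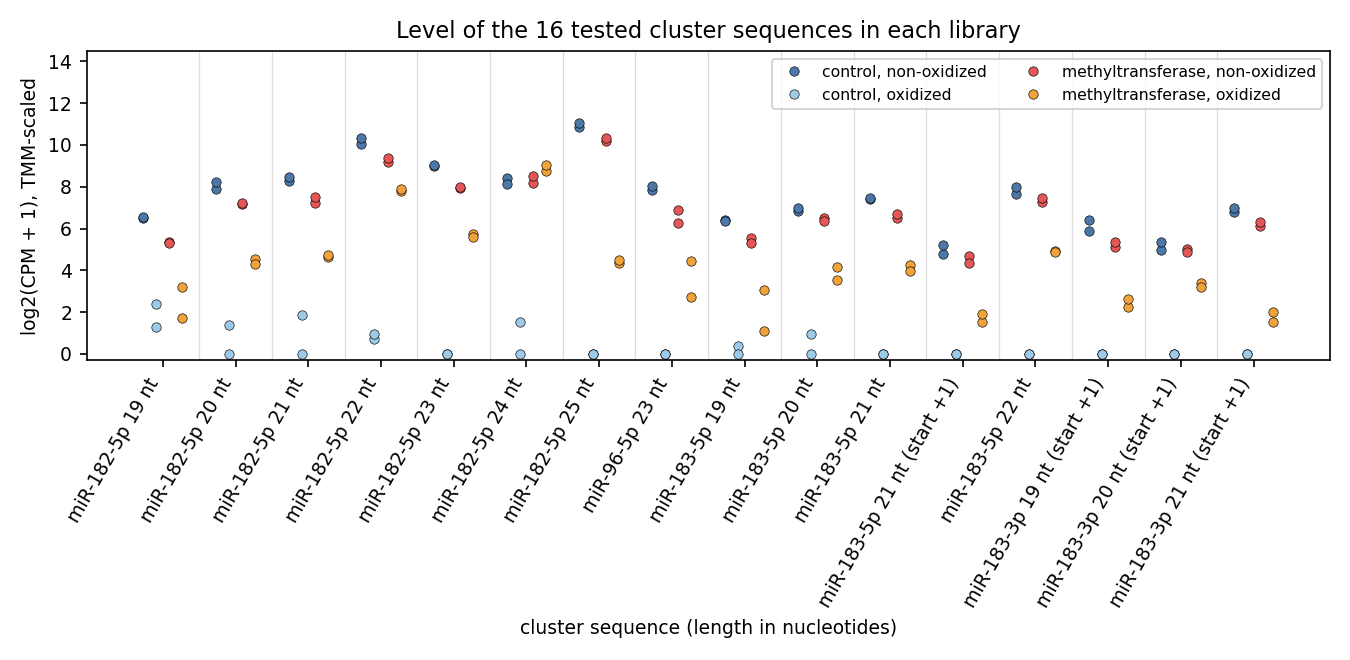
Level of each of the 16 tested cluster sequences, as log2(CPM + 1) on the TMM scale, with 1 point per library and 1 colour per group; "start +1" marks reads that start 1 nt after the RefSeq start. The oxidized control points lie below all other groups except for the 19-nt miR-182-5p read, whose 4.22 and 1.41 CPM overlap its 8.17 and 2.32 CPM in oxidized methyltransferase RNA, and the 24-nt miR-182-5p read is the one whose oxidized methyltransferase points lie above its non-oxidized ones.

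Without oxidation, no cluster sequence was called between the plasmids. In such bulk RNA, fewer cells with a microRNA and less of it per cell cannot be told apart. The methyltransferase plasmid left 0 of 16 mature-hit sequences called, as it left 0.0% of all 9851 sequences and 0.0% of the 607 tested mature microRNA sequences called by edgeR's test. At an unadjusted p under 0.05 there were 3 of the 16 and 858 of the 9851. DESeq2's Wald test called 0 cluster members, with 38 of all sequences higher and 85 lower. Mature microRNA sequences made up 0 of these 38 and 42 of these 85. The estimates were mostly below 0: 15 of 16, with a median log2 difference of -0.84 (range -1.34 to 0.04), where the median was -0.63 over mature microRNA sequences and 0.05 over all sequences. The 25-nt miR-182-5p read was at 1847 and 2082 CPM with the control plasmid and at 1145 and 1278 CPM with the methyltransferase plasmid, so the groups did not overlap. The log2 difference of -0.70 ± 0.35 was not called (edgeR adjusted p = 0.62). The single miR-96-5p read, at 230.5 and 259.98 CPM against 119 and 74.9 CPM, had the lowest estimate, -1.34 ± 0.56 (edgeR adjusted p = 0.53). The share of the cluster among mature microRNA counts was 0.262% ± 0.019 (SD, n = 2) with the methyltransferase plasmid, 0.0287 percentage points below the control plasmid. The exact two-sided permutation test of that share gave p = 0.3333, the smallest value that 2 against 2 libraries allow.

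Oxidized control RNA held few cluster reads. All members together had 29 and 11 counts in the oxidized control libraries, against 10504 and 12399 in the non-oxidized ones, and 12 of the 19 sequences had 0 counts in both. The hairpin-only reads and the variants without a hit had 0 counts there. All 16 tested members were lower in oxidized control RNA by edgeR's test, beside 46.4% of all sequences and 92.8% of mature microRNA sequences. The 25-nt miR-182-5p read had 3589 and 4237 counts before and 0 and 0 after oxidation, which makes it at least 3417-fold lower on the TMM scale and at least 159-fold lower on total counts (a floor of 3 counts over the 2 libraries). miR-96-5p went from 448 and 529 counts to 0 and 0, at least 427-fold lower on the TMM scale and at least 19.9-fold lower on total counts. The RefSeq-length miR-183-5p read went from 386 and 514 counts to 0 and 0, at least 393-fold lower (18.3-fold on total counts), and the 21-nt miR-183-3p read from 211 and 253 to 0 and 0, at least 203-fold lower (9.43-fold on total counts). The reads left differed between the 2 libraries. The 19-nt, 20-nt and 21-nt miR-182-5p reads had 13, 5 and 8 of the 29 counts in the first library and 3, 0 and 0 of the 11 in the second. In the second the 24-nt miR-182-5p read had most, with 4, followed by the 19-nt read, and the 22-nt miR-182-5p and 20-nt miR-183-5p reads had 2 each. The 19-nt read had a log2 change of -4.92 ± 0.69 (edgeR adjusted p = 7.0e-05).

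In oxidized RNA, most cluster reads were higher with the methyltransferase plasmid than with the control plasmid. Of the 16 tested members 15 were higher in oxidized methyltransferase than in oxidized control RNA by edgeR's test, beside 42.3% of all sequences and 85.3% of mature microRNA sequences called higher. The median log2 difference was 6.84, against 6.49 over mature microRNA sequences and 0.82 over all sequences, and several fitted values rest on groups at 0 and depend on the prior count. All 7 hairpin-only sequences and the 4 tested sequences with added nucleotides were also higher. With oxidized RNA the 24-nt miR-182-5p read had 0 and 4 counts for the control plasmid and 1144 and 1138 for the methyltransferase plasmid, a ratio of 613 on the TMM scale (95% exact interval of counting error 239 to 2251) and of 75.4 on total counts (29.4 to 277). All 4 control counts were in the second library, and the fitted log2 difference of 9.11 was 7.93 without the first and 13.06 without the second. The 22-nt read had 2 and 2 counts against 586 and 514, a ratio of 295 (115 to 1086), or 36.4 (14.2 to 134) on total counts. The 25-nt read had 0 and 0 counts against 53 and 46, at least 35.4-fold higher (at least 4.36-fold on total counts).

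For the miR-183 arms and miR-96-5p the oxidized counts were smaller. The 22-nt miR-183-5p read had 0 and 0 counts with the control plasmid and 78 and 62 with the methyltransferase plasmid, at least 50.1-fold higher (6.17-fold on total counts). The 24-nt miR-183-5p read, a hairpin-only sequence, had 0 and 0 against 104 and 174, at least 99.5-fold higher (12.3-fold on total counts). The 21-nt miR-183-3p read, the main one of its arm, had 0 and 0 against 8 and 4, at least 4.30-fold higher on the TMM scale. On total counts its bound was 0.529 and thus gave no direction, and its call was lost (edgeR adjusted p = 0.098). The 20-nt miR-183-3p read had 0 and 0 against 26 and 18, at least 15.8-fold higher (1.94-fold on total counts), and the 19-nt one 0 and 0 against 10 and 11, at least 7.52-fold higher, with a bound of 0.926 on total counts. miR-96-5p had 0 and 0 against 15 and 45, at least 21.5-fold higher (2.64-fold on total counts). The sequence that was not called was the 19-nt miR-182-5p read, at 13 and 3 counts against 22 and 5, with a log2 difference of 0.86 ± 0.68 (edgeR adjusted p = 0.36). That estimate was -0.34 without the first oxidized methyltransferase library, and the 19-nt miR-183-5p read lost its call without the second (edgeR adjusted p = 0.099).

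The scaling bears on these counts. Between the plasmids in oxidized RNA, 91.5% of calls over all sequences were higher with TMM, 67.9% with upper-quartile scaling and 36.4% with total counts, and the median of all sequences moved from 0.82 to -0.07 and -2.17. Of the 16 members, 15, 15 and 9 were higher under the same scalings, and with total counts the 19-nt miR-182-5p read was called lower (-2.14, edgeR adjusted p = 0.025). For oxidation with the control plasmid, the share of calls that were higher was 28.4%, 49.7% and 69.1%, and 16, 16 and 15 members were lower. The difference of the 2 oxidation effects, the interaction of plasmid and oxidation, was above 0 by edgeR's test for 15 of 16 members, beside 39.6% of all sequences and 85.7% of mature microRNA sequences. There the share of calls that were higher was 93.0%, 76.2% and 32.6%, and 15, 15 and 9 members were called.

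Within methyltransferase RNA, oxidation lowered nearly every member, by amounts that differed widely between reads of 1 arm. By edgeR's test 15 of 16 members were lower after oxidation, beside 11.2% of all sequences and 41.4% of mature microRNA sequences, and 0 were higher, beside 1.77% and 0.0%. The median log2 change of the members was -2.75, against -1.39 over mature microRNA sequences and 0.09 over all sequences. Every listed sequence holds counts in oxidized methyltransferase RNA, which also bears on these shares. MicroRNA reads outside the cluster with a mean of at least 50 counts in non-oxidized methyltransferase RNA were counted by last base. Their medians were -1.67 (A), -1.46 (C), -3.10 (G) and -1.61 (T). Of these reads 43 of 86, 30 of 65, 98 of 120 and 122 of 245 were called lower. Reads of the same arm are not independent. By arm, 6 of 7 miR-182-5p, 5 of 5 miR-183-5p, 3 of 3 miR-183-3p and the 1 miR-96-5p sequence were lower. With total-count scaling 7 of 16 members were lower and 0 higher, and 61.5% of all calls were higher instead of 13.7% (55.2% with upper-quartile scaling, where 13 members were lower). Without the first or the second oxidized methyltransferase library, 9 of 17 and 10 of 18 tested members were lower, in each case a subset of the 15.

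The 24-nt and 25-nt miR-182-5p reads, which differ by the last base, stood at opposite ends. The 25-nt read was at 1145 and 1278 CPM before and 19.7 and 21.3 CPM after oxidation, and the groups were far apart. Its log2 change was -5.88 ± 0.44 (edgeR adjusted p = 2.2e-05), and 1.65% of the 607 tested mature microRNA sequences had a lower one. The 24-nt read was at 288 and 359 CPM before and 425 and 527 CPM after oxidation, the one tested member whose values were higher after oxidation. Its log2 change of 0.56 ± 0.53 was not called (edgeR adjusted p = 0.55), and 90.9% of the mature microRNA sequences had a lower one. In a fit of microRNA sequences alone, the 24-nt read was called higher (1.95, edgeR adjusted p = 0.0060). The authors' deposited table gives a signed fold change of non-oxidized over oxidized methyltransferase RNA of 57.8 with an adjusted p-value of 4.76e-29 for the 25-nt read, and of -1.497 with 0.477 for the 24-nt read.

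As shares of miR-182-5p reads, the 25-nt form held 43.1% and 43.0% in non-oxidized and 2.43% and 2.34% in oxidized methyltransferase RNA, while the 24-nt form held 10.9% and 12.1% and then 52.5% and 57.9%. The 22-nt form held 21.5% and 22.01% against 26.9% and 26.1%. The log2 ratio of 24-nt to 25-nt counts was -1.99 and -1.83 without and 4.43 and 4.63 with oxidation, a difference of 6.44. It was -2.42 and -2.88 in non-oxidized control RNA. The exact two-sided permutation test gave p = 0.3333 for the first difference, the smallest possible. The mean length of miR-182-5p reads went from 23.5 nt in both non-oxidized to 23.3 nt in both oxidized methyltransferase libraries.

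**Figure D2:**
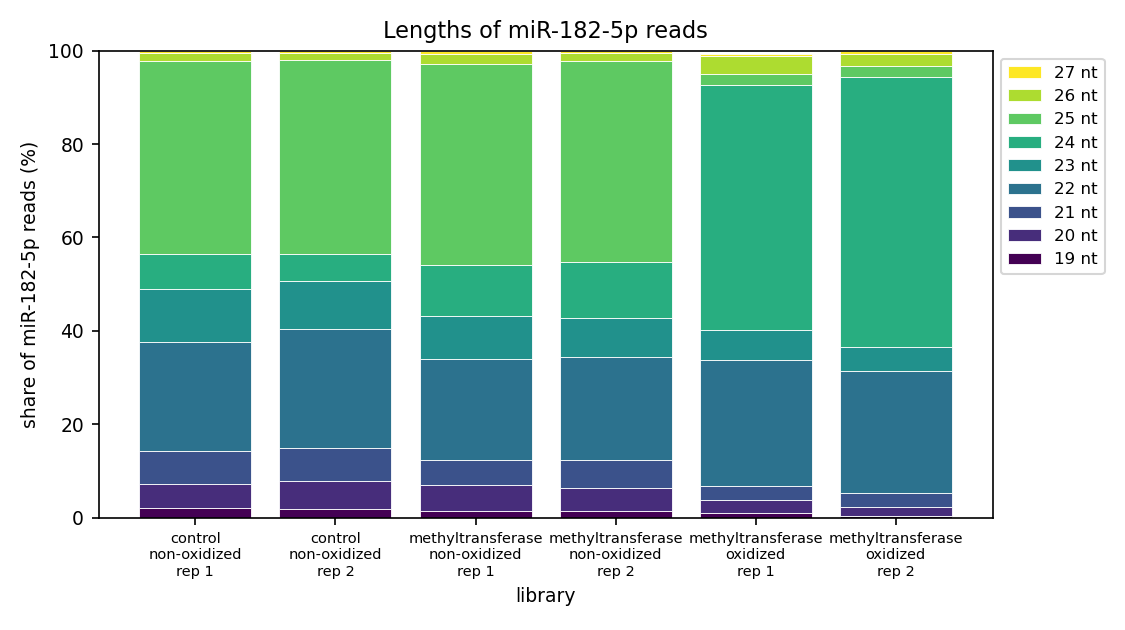
Share of miR-182-5p reads (%, RefSeq 5′ start) by read length, as stacked bars with 1 bar per library; the oxidized control libraries, with 28 and 9 such reads, are not drawn. The 25-nt share is between 41.2% and 43.1% in the 4 non-oxidized libraries and at most 2.43% in the 2 oxidized methyltransferase libraries, where the 24-nt share is 52.5% and 57.9%.

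The other miR-182-5p ends lay between these. The 19-nt, 20-nt and 21-nt reads changed by -2.86 ± 0.63, -2.81 ± 0.55 and -2.70 ± 0.59, and the 23-nt read by -2.32 ± 0.39, all called by edgeR's test (adjusted p between 0.0024 and 0.010). With total counts the 19-nt, 20-nt and 21-nt changes were -2.00, -1.94 and -1.81 and not called (edgeR adjusted p = 0.064, 0.051 and 0.076). With 1 library left out the 19-nt change ranged from -4.06 to -2.08. The 22-nt read, at 571 and 655 CPM before and 218 and 238 CPM after oxidation, changed by -1.43 ± 0.35 (edgeR adjusted p = 0.020), a call that was lost when any 1 of 5 libraries was left out (adjusted p up to 0.13). Of the reads that run past the RefSeq end, the 26-nt one changed by -0.98 ± 0.43 (edgeR adjusted p = 0.19) and the 27-nt one by -1.82 ± 0.56 (adjusted p = 0.060), and neither was called. The 25-nt read with an added T had 143 and 163 counts before and 56 and 56 after oxidation. It fell by 1.69 ± 0.42 on the log2 scale (edgeR adjusted p = 0.023), less than the 25-nt read itself, and its call was lost without any of 6 libraries. All 20 variants with a substitution came from miR-182-5p, 13 from the 24-nt read and 7 from the 22-nt read, the most abundant forms in the libraries on which the listing was selected. The 13 had 119 and 116 counts together in oxidized and 28 and 46 in non-oxidized methyltransferase RNA. For the 7 the counts were 50 and 32 in oxidized and 46 and 46 in non-oxidized methyltransferase RNA. Variants with so few counts are listed only if they reach the minimum in oxidized methyltransferase RNA. The direction of these sums is thus in part fixed by the listing.

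miR-183-5p, the more abundant arm of its hairpin, fell at every mature-hit end. Its 22-nt RefSeq read was at 155 and 175 CPM before and 29.0 and 28.7 CPM after oxidation, a log2 change of -2.51 ± 0.42 (edgeR adjusted p = 0.0023). The 19-nt, 20-nt and 21-nt reads changed by -3.32, -2.61 and -2.54. The 23-nt read, the most abundant, was at 409.8 and 468 CPM before and 51.3 and 63.0 CPM after, a log2 change of -2.94 ± 0.40 (edgeR adjusted p = 0.00062). With 1 more base the value was different: the 24-nt read was at 68.0 and 83.8 CPM before and 38.6 and 80.6 CPM after oxidation, groups that overlap, with a log2 change of -0.35 ± 0.46 (edgeR adjusted p = 0.68). Reads that start 1 nt later had the same order of ends. The 21-nt and 22-nt ones changed by -3.22 and -3.48, and the 23-nt one, which ends where the 24-nt read does, by -0.38 ± 0.43 (edgeR adjusted p = 0.62). The sign of both estimates near 0 turned positive with total-count and with upper-quartile scaling. The log2 ratio of 24-nt to 23-nt counts was -2.59 and -2.48 without and -0.41 and 0.36 with oxidation. For the later start the ratio of 23-nt to 22-nt counts was -1.79 and -1.99 without and 0.96 and 1.43 with oxidation. Both differences, 2.51 and 3.08, had an exact permutation p of 0.3333.

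miR-183-3p, the opposite arm of that hairpin, also differed by its end. The 21-nt read, which has the RefSeq 3′ end, was at 68.0 and 78.2 CPM before and 2.97 and 1.85 CPM after oxidation, a log2 change of -4.87 ± 0.54 (edgeR adjusted p = 0.00018). Only 4.45% of the tested mature microRNA sequences had a lower value. The 20-nt read had 61 and 61 counts before and 26 and 18 after oxidation and changed by -1.74 ± 0.49 (edgeR adjusted p = 0.043), a call lost when any 1 of 6 libraries was left out (adjusted p up to 0.20). The 22-nt read changed by -2.35 ± 0.52 (edgeR adjusted p = 0.012), a call lost without the second non-oxidized (-1.97, adjusted p = 0.085) or the first oxidized methyltransferase library (-2.07, adjusted p = 0.097). The 19-nt read changed by -3.06 ± 0.53 (edgeR adjusted p = 0.0029). The log2 ratio of 22-nt to 21-nt counts was -0.74 and -0.22 without and 1.46 and 2.81 with oxidation (difference 2.61, exact permutation p = 0.3333). The 21-nt form went from 38.1% and 35.5% of miR-183-3p reads to 11.3% and 5.97%, and the 20-nt form from 17.9% and 13.0% to 36.6% and 26.9%.

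miR-96-5p, listed with 1 read of 23 nt that equals the RefSeq sequence, had 227 and 160 counts before and 15 and 45 after oxidation in methyltransferase RNA. It changed by -2.88 ± 0.61 (edgeR adjusted p = 0.010), and the 2 oxidized libraries differed more than for the other main reads. Without the first of them the change was -2.23 and not called (edgeR adjusted p = 0.053), and without the second it was -3.95.

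**Figure D3:**
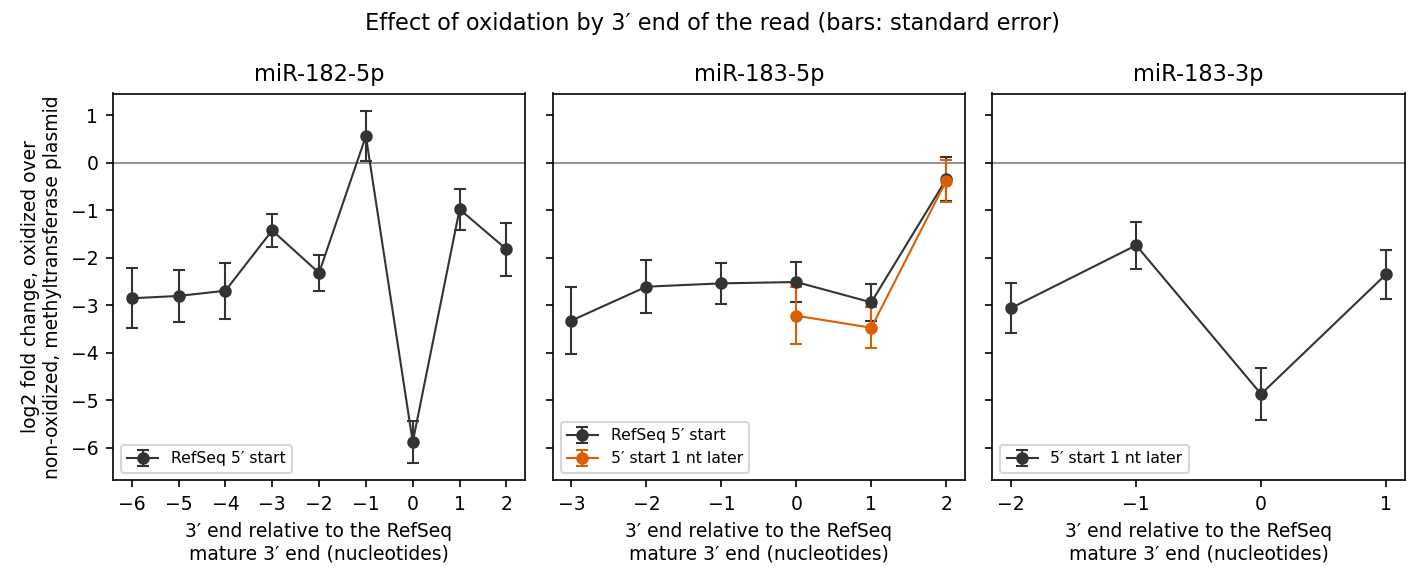
Log2 fold change (± SE) of oxidized over non-oxidized methyltransferase RNA against the 3′ end of the read, in nucleotides from the RefSeq mature 3′ end (negative: shorter), for miR-182-5p, miR-183-5p and miR-183-3p; colours mark the 5′ start. The lowest points of miR-182-5p (-5.88) and miR-183-3p (-4.87) are at the RefSeq end, and both miR-183-5p series rise to about the same value, -0.35 and -0.38, at 2 nt past it.

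The steps from 1 end to the next can be set beside those of all other microRNA reads, by the base added, as a description. From the 24-nt to the 25-nt miR-182-5p read the added base is G and the log2 change differed by -6.44. From 25 to 26 nt the added base is G again and the difference was 4.90, and from 23 to 24 nt it is C with 2.88. For miR-183-5p the step from 22 to 23 nt adds G (-0.43) and that from 23 to 24 nt adds T (2.59). For miR-183-3p the steps from 20 to 21 and from 21 to 22 nt both add A, with differences of -3.13 and 2.52. Both G steps of miR-182-5p share the 25-nt read, and both A steps of miR-183-3p share the 21-nt read. Each is the lowest tested read of its arm, so the steps into and out of it must have opposite signs. Other steps within the cluster are not given here. Among 100 pairs of other microRNA reads that differ by a final G the median difference was -0.89, with 69 below 0. It was 0.38 over 107 pairs with A, 0.89 over 59 with C and -0.21 over 223 with T. Outside the cluster, the 174 reads ending in G had a median log2 change of -2.29, against -1.08 for 165 ending in A, -1.16 for 116 ending in C and -1.13 for 387 ending in T. Reads of 1 microRNA share their source, so these pairs are not independent.

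Summed by arm, all 4 arms fell after oxidation in methyltransferase RNA by edgeR's test. In the fit of single reads 41.4% of mature microRNA sequences and 11.2% of all sequences were called lower. The share among the arms of other microRNAs was not counted, so the 4 calls do not set the cluster apart. miR-182-5p changed by -1.76 ± 0.39 (adjusted p = 0.011). The log2 changes of the others were -2.68 ± 0.41 for miR-183-5p (edgeR adjusted p = 0.00092), -2.92 ± 0.62 for miR-96-5p (adjusted p = 0.010) and -3.04 ± 0.44 for miR-183-3p (adjusted p = 0.00094). The summed miR-182-5p counts were 4937 and 6216 before and 2090 and 1910 after, of which the 24-nt read gave more than any other. Within the cluster, miR-182-5p made up 80.7% ± 1.6 (SD, n = 2) of counts in non-oxidized and 89.6% ± 0.85 in oxidized methyltransferase RNA. miR-183-5p went from 12.1% ± 0.56 to 7.10% ± 0.036 and the 3p arm from 4.27% ± 0.047 to 1.97% ± 0.21. The groups did not overlap, with an exact permutation p of 0.3333 for each. In oxidized control RNA the 3p arm had 0 of 29 and 0 of 11 cluster counts, which allows a share of up to 10.3% and 27.3%, so a difference from the other groups was not detectable at this depth.

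As a share of all mature microRNA counts, a scale that does not depend on other RNA, the cluster was at 0.276% and 0.249% in non-oxidized and at 0.113% and 0.131% in oxidized methyltransferase RNA, a difference of -0.140 percentage points with an exact permutation p of 0.3333. In oxidized control RNA it was 0.211% (95% Wilson interval 0.147 to 0.302) and 0.109% (0.0607 to 0.195). The oxidized groups thus overlapped (difference -0.0377 percentage points, exact permutation p = 1), and without the first oxidized control library the difference was 0.0132.

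**Figure D4:**
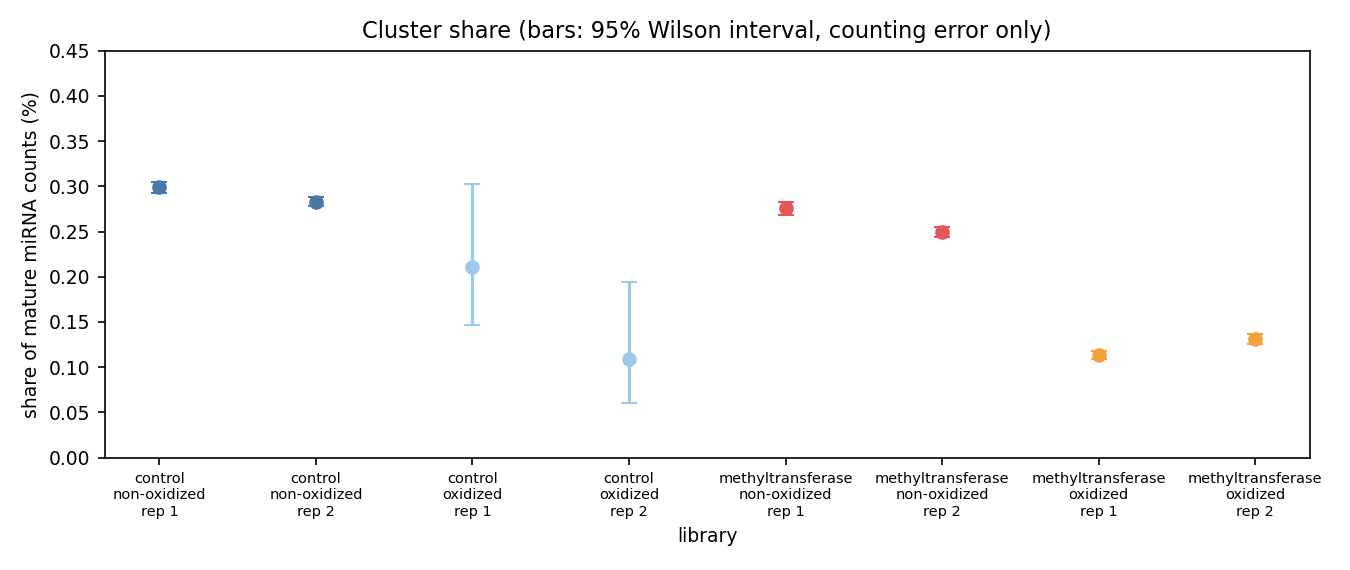
Share of the mature-hit cluster sequences among all mature microRNA counts (%) in each of the 8 libraries, with 95% Wilson intervals that cover counting error only. The 4 non-oxidized libraries lie between 0.249% and 0.299%, the oxidized methyltransferase libraries at 0.113% and 0.131%, and the oxidized control libraries, with 29 and 11 counts, at 0.211% and 0.109%.

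The read whose pattern over the 8 libraries was nearest to the 25-nt miR-182-5p read, by the distance of centred log2 CPM among 363 mature sequences of other microRNAs, was miR-26a-5p (22 nt, distance 1.40). It was followed by miR-16-5p (1.68), miR-15b-5p (1.80), miR-30d-5p (1.99) and miR-151-5p (2.00). Among the tested members the nearest was the 23-nt miR-182-5p read (4.07), followed by miR-96-5p (4.44) and the 22-nt miR-183-5p read (4.61). The 24-nt read of miR-182-5p was farther away (7.99). The 23-nt miR-183-5p read, the most abundant of its arm, has a hairpin hit only and was not compared.

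Other microRNAs are given as lists, by the most abundant read of each. Of 8 microRNAs that are polycistronic or typical of epithelial cells, such as the miR-200 family, all 8 were listed and higher in oxidized methyltransferase than in oxidized control RNA, and 6 fell and 0 rose after oxidation in methyltransferase RNA (median log2 change -2.61). Of 8 islet microRNAs 6 were listed, and all 6 were higher in the first comparison, while 1 fell and 0 rose in the second (median -1.12). Over all tested mature microRNA sequences 85.3% were higher in the first comparison, and 41.4% were lower and 0.0% higher in the second, and over all sequences 42.3%, 11.2% and 1.77%. The counts of the first comparison are thus near the share of mature microRNA sequences. miR-93-5p, from another cluster of 3 hairpins, went from 18255 and 31159 to 1881 and 672 counts after oxidation in methyltransferase RNA, whereas miR-200c-3p went from 17856 and 22099 to 18875 and 24552 and miR-129-5p, an islet and neuronal microRNA, from 14785 and 19138 to 22087 and 11123. The difference between these lists and the cluster was not tested.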

How the data were processed

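Small RNA was measured in 8 libraries in 4 groups of 2. The authors deposited 1 table with whole-number counts per read sequence, a normalized signal (counts divided by a size factor) per library, and, for 2 comparisons, a signed fold change (used as a score) and an adjusted p-value, per the file headers. Aligner, genome build and the use of molecular identifiers are not given in the sources used here. The 12608 lines were merged to 11568 sequences. Counts were tested with edgeR 4.0.16 (R 4.3.3): TMM factors, filterByExpr, 1 model with 4 groups, quasi-likelihood test, Benjamini-Hochberg adjustment over the 9851 sequences tested. Shares were compared by exact permutation tests (SciPy 1.17.1). The test was tried on simulated data with known changes. Intervals and floors cover counting error only.

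All sequences named for the cluster are reported, with the most abundant hairpin-only and variant reads, 2 microRNA lists, markers, and the 5 nearest reads by log2 CPM (prior count 2, mean count at least 50). The members and lists were chosen with earlier results of these data known, and the read-end shares, ratios and last-base counts after their values were seen. Alternatives were other scalings and filters, DESeq2 1.42.0, a replicate block, subsets of sequences or libraries, and leaving out each library. Same-numbered libraries did not all deviate together, so no block was used. Normalized signal was not tested, being derived from the counts.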

Additional observations from a re-analysis of the deposited data

Results flagged for a closer look

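The log2 change on oxidation was unequal between the 2 plasmids for 15 of the 16 tested members, by the interaction term of edgeR's quasi-likelihood test (log2 units, methyltransferase minus control plasmid). The term was called above 0 for 39.6% of all sequences and 85.7% of mature microRNA sequences, and the members are near the latter share. Many of the members' values rest on oxidized control libraries at 0 counts and depend on the prior count. For miR-182-5p the difference was 5.29 at 20 nt, 5.08 at 21 nt, 9.03 at 22 nt, 10.85 at 23 nt, 9.06 at 24 nt and 9.23 at 25 nt. Single oxidized control libraries moved 3 of these: without the first the 20-nt and 21-nt values were 9.35 and 9.77, and without the second the 24-nt value was 13.03. In a fit of microRNA sequences alone the 20-nt and 21-nt values were 0.43 and 0.19 and not called (edgeR adjusted p = 0.68 and 0.86), and the 24-nt value was 4.35. The 25-nt value lay between 9.09 and 9.51 over the alternatives. For miR-183-5p it was 5.07 at 19 nt, 5.43 at 20 nt, 9.05 at 21 nt and 9.48 at 22 nt, and 5.92 for the 21-nt read that starts 1 nt later. With 1 library left out the 19-nt value ranged from 3.59 (without the second oxidized methyltransferase library) to 7.14 (without the first oxidized control library), and the 20-nt value from 4.29 to 8.46 (without the first and the second oxidized control library). With microRNA sequences alone they were 0.51 and 0.76 and not called (edgeR adjusted p = 0.80 and 0.53). For miR-183-3p it was 7.26 at 19 nt, 7.58 at 20 nt and 6.17 at 21 nt, and for miR-96-5p it was 9.23, with 9.86 and 8.23 without the first and the second oxidized methyltransferase library. With microRNA sequences alone none of the miR-183-3p reads was called, nor miR-96-5p or the miR-183-5p read that starts later (adjusted p between 0.076 and 0.33). The 19-nt miR-182-5p read, with 13 and 3 counts in oxidized control RNA, was the exception (2.07 ± 0.88, edgeR adjusted p = 0.083). It was 3.09 and 3.07, and called, without the first oxidized control or the second oxidized methyltransferase library (edgeR adjusted p = 0.038 and 0.012), and 0.88 without the first oxidized methyltransferase library.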

How the results depend on the processing

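Depth in oxidized control RNA limits every comparison with it, and 2 libraries a group limit the precision. Called members went from 15 to 9 (total counts), 7 (microRNA sequences alone) and 4 of 4 (summed by arm) between the plasmids in oxidized RNA, from 16 to 10 (microRNA sequences alone) and 4 of 4 (arms) for oxidation with the control plasmid, from 15 to 7 (total counts) and 4 of 4 (arms) for oxidation with the methyltransferase plasmid, and from 15 to 9, 6 and 4 of 4 for the interaction. The fit of arms tested 4 sums, whereas that of microRNA alone tested 16 members, as did the main fit. With microRNA alone some estimates between the plasmids in oxidized RNA moved, such as the 20-nt miR-182-5p read from 4.42 to 0.27. Others lost the call with a higher estimate, such as the 19-nt miR-183-3p read (6.33 and 7.17, edgeR adjusted p = 0.17 in the second fit). The cause of the changes was not tested. Leaving out 1 library gave 9 to 15 calls for oxidation with the methyltransferase plasmid, and -0.0886 to 0.0132 percentage points for the cluster share of oxidized methyltransferase minus oxidized control RNA. Deviations of same-numbered libraries from their group means, in log2 CPM over 9851 sequences, correlated between -0.03 and 0.37. The highest value was between the non-oxidized libraries of the 2 plasmids. Whether the numbers pair those libraries is not known. With a replicate block 15, 0, 16, 15 and 15 members were called, the same members as without it.

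Signs that turned, in log2 units: the 19-nt miR-182-5p read between plasmids in oxidized RNA, -2.14 (total counts) and -3.35 (microRNA alone), and -0.34 to 1.88 with 1 library left out; in oxidation of control RNA, 1.37 (microRNA alone); in the interaction, -1.46 (total counts) and -2.84 (microRNA alone). The 21-nt read between plasmids in oxidized RNA was at -0.14 (microRNA alone). For oxidation with the methyltransferase plasmid, with total counts, upper quartile and a filter of 10 counts in 4 libraries, the 24-nt miR-183-5p read was at 0.54, 0.41 and 0.11, its 23-nt form with the later start at 0.48, 0.38 and 0.073, and the 23-nt read with an added A at 0.75, 0.70 and 0.38. With microRNA alone the first 2 were at 1.04 and 1.01, and the 26-nt miR-182-5p read at 0.41. The 1.01 of the later start was called higher after oxidation (edgeR adjusted p = 0.049), and the 1.04 was not called (adjusted p = 0.075). The read with an added A was at 0.0012 with the replicate block and 0.15 with only the libraries compared, and at -0.62 to 0.70 with 1 library left out. The 24-nt miR-183-5p read was at -0.80 to 0.065 there.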
